A study of Homo sapiens with 6 samples.

Results

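Accessible chromatin was examined at 8 gene loci that are known for their part in T cell leukaemia: TAL1, LMO2, GATA3, RUNX1, MYB, NOTCH1, BCL11B and LEF1. A locus was the gene span in hg19 plus 5 kb on each side, and its members were the ATAC-seq peaks that overlapped it. The members formed 35 regions, of 32037 regions in the whole series, once overlapping peaks of the 6 libraries were joined. ATAC-seq uses a transposase that cuts open chromatin, so a peak marks DNA that was accessible in the cells. The cells were CCRF-CEM, an established human T lymphoblast leukaemia line. Parent cells, which carry SLFN11, a protein that acts on stressed replication forks, were compared with SLFN11-knockout cells made from them. Each of these was given DMSO, the solvent, or 100 nM camptothecin, a drug that holds topoisomerase I in its DNA-bound state, with exposures of 2 h and 4 h. Each of the 6 groups had a single library and there was 1 knockout line, so no value has a replicate spread, no test between conditions was made, and the line cannot be told apart from the genotype.

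The placement of the libraries needs a caution before any result. Each peak list carries a library code, and the sample titles carry the same codes, but in 0 of 6 cases did the code of a list match the title of the sample it is recorded under. Treatments are given here by library code. CCRF_WT is then the parent DMSO library, CCRF_WT2 the parent 2 h library and CCRF_WT4 the parent 4 h library. CB45_KO, CB45_KO_2 and CB45_KO_4 are the knockout libraries in the same order. By the recorded samples, CCRF_WT2, CCRF_WT4 and CCRF_WT are the parent DMSO, 2 h and 4 h libraries, and CB45_KO_2, CB45_KO_4 and CB45_KO are those of the knockout. Counts of peaks missing or added in each comparison are given both ways, and the changes flagged near the end by code only. Values given for a library code, and counts of regions held by all 6 lists or by the lists of one genotype, are the same in both placements.

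TAL1, a basic helix-loop-helix factor, and LMO2, a bridging protein that does not itself bind DNA, work in one complex that is silent in most normal T cells past their early stages and active in many T cell leukaemias. GATA3, RUNX1 and MYB are DNA-binding factors that are known to occupy shared enhancers with TAL1 in such leukaemias. NOTCH1 is a membrane receptor whose released inner part acts in the nucleus, BCL11B is a zinc finger factor that fixes the T cell fate, and LEF1 binds DNA as the nuclear partner of beta-catenin. NOTCH1 and LMO2 are thus members of the group by their role in leukaemia and not as sequence-specific factors. In CCRF-CEM, a deletion is known to join the neighbouring gene STIL to TAL1.

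The promoters of 3 loci are shown because the results differ most plainly there. TAL1 had no peak, whereas the regions over the 5′ ends of the MYB and NOTCH1 spans were called in all 6 libraries. The sequences are RefSeq's for GRCh38.p14, which is not the build of the peaks, so peaks were not placed on them. Each is the 250 bases before a start, written 5′ to 3′ on the strand of the gene. RefSeq's table lists 2 starts for TAL1, at chr1:47232336-47232585 and chr1:47231716-47231965 on the minus strand. The span of TAL1 used here and the RefSeq gene have the same length, 16046 bases, so the outer start is the 5′ end of the span. For MYB the lengths differ, 37859 against 37865 bases, as they do for NOTCH1, 51343 against 51616. Their printed starts are thus not shown to be the 5′ ends of the spans. Capitals in the TAL1 sequences mark matches, on either strand, to AGATAA, the core read by GATA factors, to TGTGGT, read by RUNX factors, and to CCGGAA, read by ETS factors.
TAL1 outer start: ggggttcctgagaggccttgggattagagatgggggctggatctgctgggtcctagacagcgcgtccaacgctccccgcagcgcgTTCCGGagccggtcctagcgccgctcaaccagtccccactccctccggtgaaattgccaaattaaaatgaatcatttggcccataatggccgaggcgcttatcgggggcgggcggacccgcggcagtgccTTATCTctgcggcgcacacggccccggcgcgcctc
TAL1 inner start: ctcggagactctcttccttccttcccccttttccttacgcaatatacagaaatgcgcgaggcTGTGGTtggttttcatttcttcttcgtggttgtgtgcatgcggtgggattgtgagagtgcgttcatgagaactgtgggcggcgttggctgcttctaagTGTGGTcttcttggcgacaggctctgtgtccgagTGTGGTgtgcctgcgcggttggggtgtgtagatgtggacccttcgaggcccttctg
In the outer sequence the search found 1 GATA and 1 ETS match, and in the inner one 3 RUNX matches. Of 35116 promoters in the table, 9.17% held the first of these motifs, 11% the RUNX motif and 14.5% the ETS motif. No capital in the MYB and NOTCH1 sequences stands for a factor, since none of 7 motifs searched, also the E-box CAGCTG, the LEF1 motif CTTTGA, the RBPJ motif GTGGGAA and the CCAAT box, was found in either, and these letters alone say nothing of the factors. There, capitals mark CG dinucleotides.
MYB, chr6:135181058-135181307, plus strand: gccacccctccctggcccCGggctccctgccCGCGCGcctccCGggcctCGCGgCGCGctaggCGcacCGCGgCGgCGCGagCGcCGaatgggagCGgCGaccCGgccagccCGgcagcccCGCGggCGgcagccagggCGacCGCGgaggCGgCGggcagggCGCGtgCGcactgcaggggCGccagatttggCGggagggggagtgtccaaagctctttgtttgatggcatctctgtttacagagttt
NOTCH1, chr9:136546049-136546298, minus strand: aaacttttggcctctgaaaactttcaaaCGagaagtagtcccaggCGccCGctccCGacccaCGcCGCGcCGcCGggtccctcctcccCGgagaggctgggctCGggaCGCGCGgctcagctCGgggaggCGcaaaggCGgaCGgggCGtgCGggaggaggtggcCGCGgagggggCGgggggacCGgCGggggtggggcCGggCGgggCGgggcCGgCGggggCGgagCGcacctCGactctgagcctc
MYB had 34 CG dinucleotides and a GC content of 75.6%, NOTCH1 33 and 76.0%, and the TAL1 outer and inner sequences 24 and 14 with a GC content of 64.8% and 54.8%. The called loci did not all have such promoters. The BCL11B sequence, a locus with a region called in all 6 libraries just upstream of the gene, had 17 CG dinucleotides and a GC content of 54.8%, and that listed for LEF1, at a start other than the outermost, had 8 and 47.6%. The sequence listed for RUNX1, also at a start other than the outermost, had 32 and 71.2%. Those of the 6 starts listed for GATA3 had 4 to 30 CG dinucleotides and a GC content of 55.6% to 74.8%. The median GC content of all promoters was 58.0%. Whether promoter composition bears on the calls was not tested. Of the 8 genes, 7 had an entry, and LMO2 had none.

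The 6 libraries differed in how many peaks they held at these loci, in step with their whole lists. Peaks at the loci numbered 15 in CCRF_WT, 25 in CCRF_WT2 and 22 in CCRF_WT4, and 21, 21 and 20 in CB45_KO, CB45_KO_2 and CB45_KO_4. CCRF_WT was lowest and the other parent libraries were highest. These were 0.101% to 0.109% of each list, and CCRF_WT also had the shortest list, 14205 peaks against 19167 to 23665. Bases under these peaks came to 4444, 11453 and 11643 in the parent libraries, in the same order, and 7855, 7581 and 6966 among the knockout ones, with a median peak width of 276, 466 and 495 bp and of 315, 278 and 289 bp. Among the entries of weakest p in each list, the lowest background recovered lay between 1.22 and 1.37 reads in the 6 libraries, lowest in CCRF_WT. The search for this level had a fixed lower bound, so these values are not a measure of depth. When each list was cut to its best 14205 peaks, the loci held 15, 13 and 15 peaks in CCRF_WT, CCRF_WT2 and CCRF_WT4. The knockout libraries then held 11, 12 and 13, so CCRF_WT was no longer lowest. The part of depth and list length in the peak numbers was not tested.

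**Figure D1:**
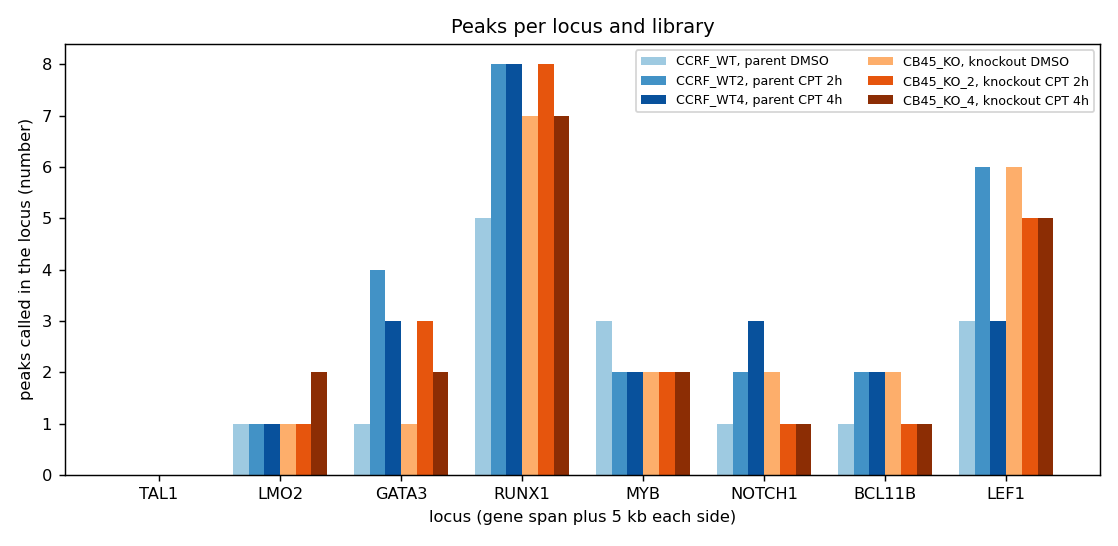
Number of peaks (vertical axis) called in each locus (horizontal axis) in the 6 libraries, parent in blue and knockout in orange, with treatments by library code; there was 1 library a group, so bars carry no error. RUNX1 had 5 to 8 peaks in every library and TAL1 had none.

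Sharing among the libraries was close to that of the genome. All 6 libraries held 12 of the 35 regions (34.3%, Wilson 95% interval 20.8 to 50.8%), against a background of 34.6% over all regions. A single library held 11 (31.4%, 18.6 to 48.0%), against 27.3%. Both genotypes held 22 of the 35 (62.9%), against 64.1%. No region was held by all 3 parent libraries and no knockout library, or the reverse, against 0.309% and 0.715% of all regions. Nor was any held by both libraries coded as DMSO and no other, against 0.187%. Regions absent from 1 library only were both at LEF1 and made up 5.71% against 9.69%. Regions shared by all 6 had a median width of 590 bp, those of 1 library 228 bp, and over the genome these widths were 784 and 188 bp. Intervals cover counting error only, and regions of one locus are not independent.

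**Figure D2:**
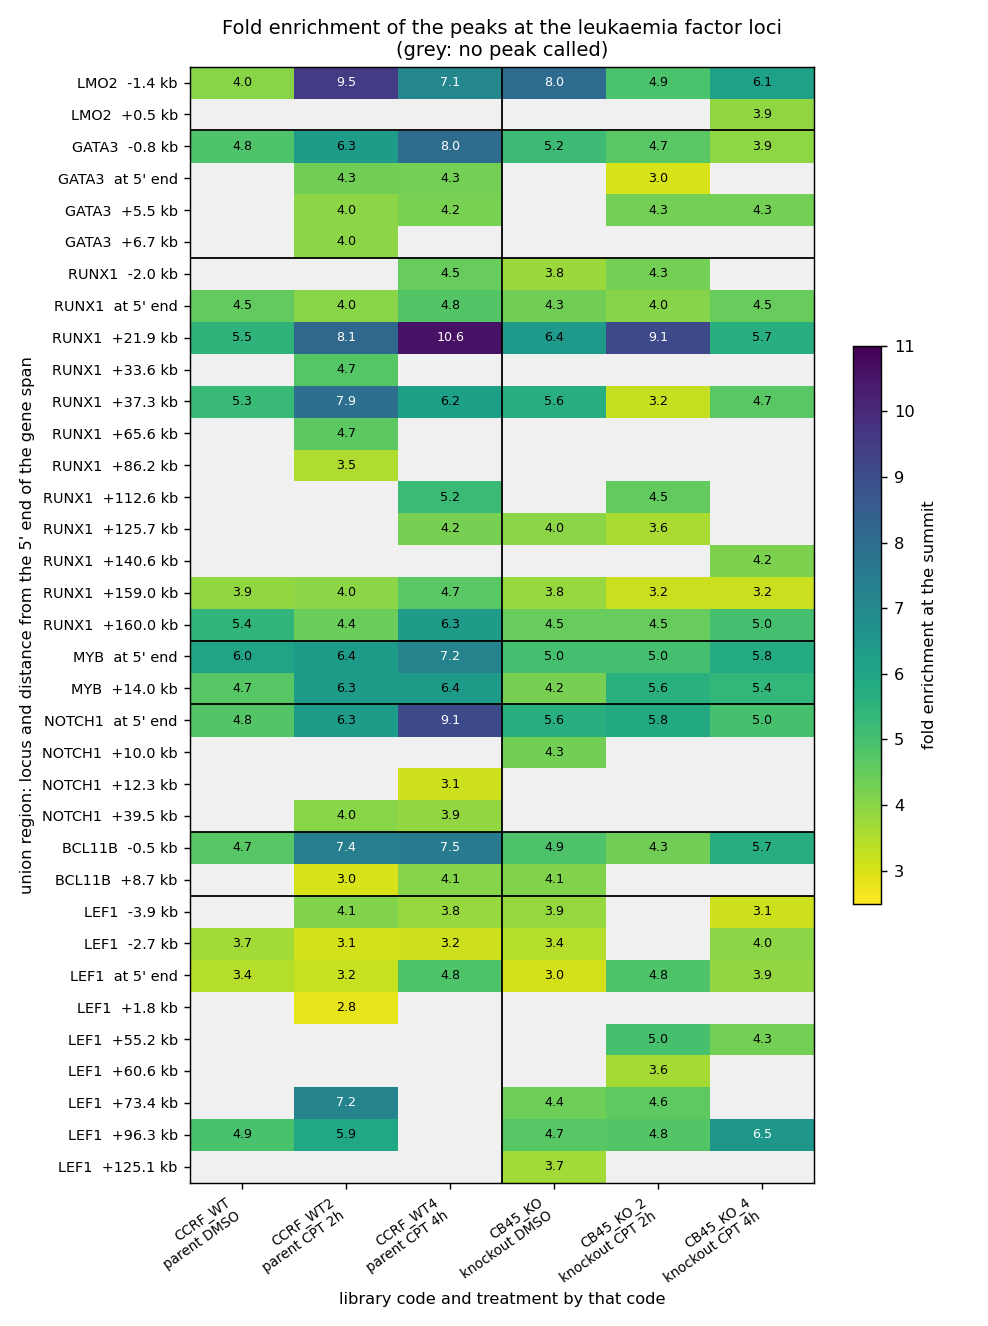
Fold enrichment over background at the summit (colour and number) of each region (rows, by locus and by distance of its nearest edge from the 5′ end, minus for upstream) in each library (columns, with treatment by code); grey cells had no peak. Rows filled across, such as RUNX1 at 21.9 kb and both MYB regions, are the 12 shared regions.

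TAL1 had no peak in any of the 6 lists, from chr1:47676962 to chr1:47703007. The nearest peak on the upstream side stood 81.6 to 81.7 kb from the gene span in all 6 libraries, at chr1:47779581-47780189 in the widest call. Its fold enrichment, which is the authors' own value for the summit over local background, was 11.6, 13 and 14.3 in CCRF_WT, CCRF_WT2 and CCRF_WT4, and 11.6, 10.6 and 12.3 in the knockout libraries. The peak was thus high in every library. STIL is the next protein-coding gene on that side in RefSeq (GRCh38.p14), but the peak was not placed in a gene, because no hg19 annotation was used here. On the other side the nearest peak was 358 kb away in CCRF_WT4, where it rested on 10 reads, and 491 to 497 kb away in the other 5 libraries. The stretch without a called region, 47323667 to 47779580, was 456 kb long, and 3.34% of 32014 gaps between neighbouring regions were at least as long, with a median gap of 33.0 kb. A long gap takes up more of the genome than a short one. The share of gaps is thus not how often a locus would fall in a gap of this length. Whether the known deletion, the mappability or the depth bears on this was not tested, and a locus without a called peak is not shown to be closed.

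LMO2 had 1 strong region, upstream of its 5′ end by 1.41 kb, at chr11:33915247-33915732. The fold enrichment was 4.02, 9.49 and 7.06 in CCRF_WT, CCRF_WT2 and CCRF_WT4, and 8.04, 4.91 and 6.14 in CB45_KO, CB45_KO_2 and CB45_KO_4. By code, the parent DMSO library was lowest of the parent libraries and the knockout DMSO library highest of the knockout ones, and these 2 are recorded as the 4 h libraries. Summit pileups, the number of reads over the summit as recovered from fold and p, were 13, 55 and 34 for parent cells and 33, 22 and 23 for knockout cells. CCRF_WT2 stood at 79.8% of its list by fold and CB45_KO at 82.1%, so this peak was among the higher ones there and, at 12.0%, among the lower ones in CCRF_WT. The other LMO2 region, chr11:33913106-33913359, lay 0.477 kb inside the gene and was called in CB45_KO_4 alone, at 3.91-fold and 14 reads.

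GATA3, the gene of a zinc finger factor needed for T cell development, had 4 regions, and the 5′ end of the span used was not always called. RefSeq (GRCh38.p14) lists 6 starts for GATA3 and a gene of 29866 bases, against a span of 20498 here. Starts other than that of the span were not placed among the peaks, so a promoter of GATA3 is not shown to be uncalled. The region 0.847 kb upstream, chr10:8095367-8095820, was held by all 6 libraries, at 4.85, 6.32 and 7.98-fold in the parent and 5.18, 4.68 and 3.94-fold in the knockout libraries. By code the parent values stood in rising order of treatment and the knockout values in falling order. In the recorded placement the order in parent was 6.32, 7.98 and 4.85, and in knockout 4.68, 3.94 and 5.18, so the pattern is not kept. Pileups there were 26, 82 and 115 reads in the parent and 34, 36 and 23 in the knockout libraries.
The region over the 5′ end of the span, chr10:8096359-8096862, was called in CCRF_WT2 (4.33-fold, 54 reads), CCRF_WT4 (4.27-fold, 59 reads) and CB45_KO_2 (3.01-fold, 23 reads). The CB45_KO_2 peak ended just upstream of the 5′ end itself. The region was missing from both libraries coded as DMSO and from CB45_KO_4. A region 5.53 kb inside the gene, chr10:8102197-8102425, was called in all 4 libraries coded as camptothecin and in neither coded as DMSO. Its folds were 3.98 and 4.21 in CCRF_WT2 and CCRF_WT4 and 4.28 and 4.27 in CB45_KO_2 and CB45_KO_4, on 19 to 26 reads. It was the only 1 of the 35 with that pattern, which 1.77% of all regions showed, and by the recorded samples it is a region of the DMSO and 2 h libraries. The last, chr10:8103333-8103655, was called in CCRF_WT2 alone at 3.98-fold.

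RUNX1, whose product binds DNA with CBFB and is known for a distal and a proximal promoter, had the most regions, 12 over a window of 271 kb. Its 5′ end, chr21:36421177-36421788, was called in all 6 libraries within a narrow range, 4.55, 4.02 and 4.76-fold in the parent and 4.34, 4.05 and 4.48-fold in the knockout libraries. The highest region lay 21.9 kb inside the gene, at chr21:36398868-36399704. It reached 5.48, 8.14 and 10.6-fold in CCRF_WT, CCRF_WT2 and CCRF_WT4, and 6.42, 9.13 and 5.67-fold in CB45_KO, CB45_KO_2 and CB45_KO_4. CCRF_WT4 and CB45_KO_2 were the high ones, above 81.0% and 89.8% of the peaks in their lists, and both libraries coded as DMSO, recorded as 4 h, were lower than the 2 h library by code, recorded as DMSO, of their genotype. The 10.6-fold value was the highest of any member.
Another shared region, 37.3 kb inside at chr21:36383927-36384323, gave 5.26, 7.91 and 6.21-fold in the parent and 5.64, 3.25 and 4.67-fold in the knockout libraries, on 12 to 29 reads. Farther in, 159 and 160 kb from the 5′ end, a pair of neighbouring regions was held by all libraries. The one at chr21:36260406-36261546 gave 5.42, 4.41 and 6.30-fold in the parent and 4.46, 4.47 and 5.00-fold in the knockout libraries. Its call was 1141 bp wide in CCRF_WT4 and 315 to 471 bp in the other 5. The one at chr21:36261843-36262585 was lower, at 3.87, 3.99 and 4.67-fold and at 3.82, 3.17 and 3.17-fold, and was called as 2 peaks in CB45_KO_4. Whether this pair covers the proximal promoter was not settled, since no hg19 annotation was used here.
The other 7 regions of RUNX1 were held by 1 to 3 libraries and rested on 8 to 26 reads. Upstream by 2.04 kb, chr21:36423640-36423885 was called in CCRF_WT4, CB45_KO and CB45_KO_2, and so was chr21:36295553-36295934, 126 kb inside. The region 113 kb inside, chr21:36308691-36308950, was called in CCRF_WT4 at 5.22-fold and in CB45_KO_2 at 4.55-fold, on 14 reads each. Those called in 1 library were 3 of CCRF_WT2, at 33.6, 65.6 and 86.2 kb, and 1 of CB45_KO_4 at 141 kb.

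**Figure D3:**
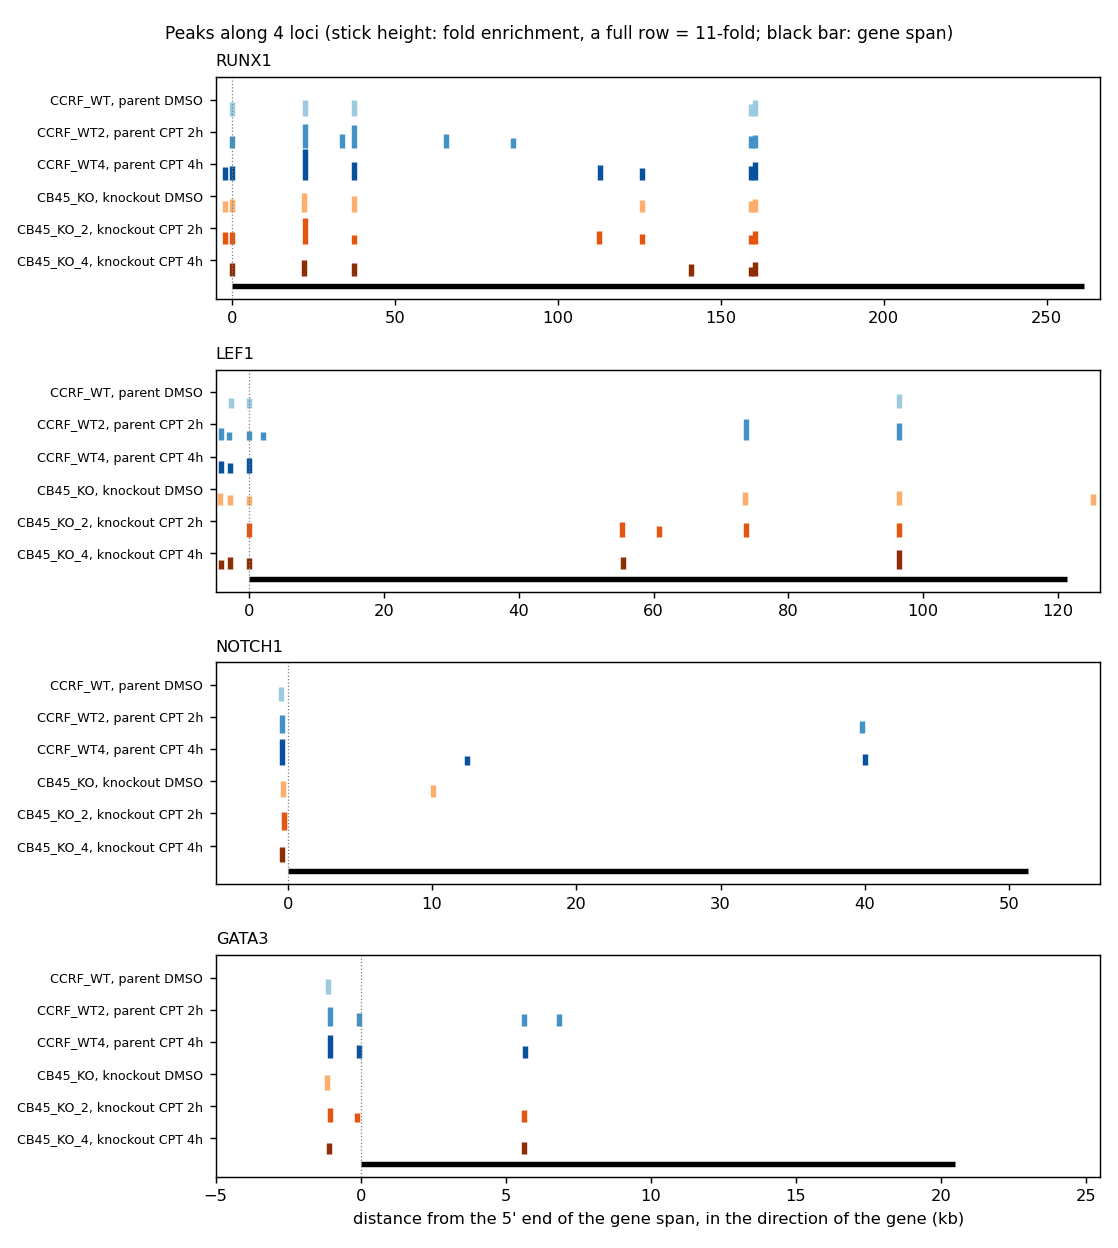
Position of the peaks along RUNX1, LEF1, NOTCH1 and GATA3 (horizontal axis, distance from the 5′ end in kb, the black bar being the gene span) in each library (rows, treatment by code); the height of a stick is the fold enrichment, with 11-fold filling a row, and each region shows its highest peak. Shared regions line up down the rows, and RUNX1 holds those at 0, 21.9, 37.3, 159 and 160 kb.

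MYB, a factor that keeps early blood cells dividing, had 2 regions and both were held by all 6 libraries. The region over its 5′ end, chr6:135501592-135502761, was the widest of all members at 1170 bp. It gave 6.03, 6.37 and 7.21-fold in the parent and 5.02, 5.02 and 5.78-fold in the knockout libraries, so the lowest parent value was above the highest knockout value. Among the 12 shared regions this order held at 2, here and at RUNX1 159 kb inside, against a background of 6.75% of all shared regions, and the reverse order held at 0, against 1.81%. Whether that count departs from the background was not tested, and the libraries of one genotype differ in treatment. Pileups were 40, 86 and 112 reads in the parent and 36, 43 and 40 in the knockout libraries, and these did overlap. In CCRF_WT the call was split into 2 peaks, the higher one 401 bp wide, whereas the other 5 libraries had a single peak of 1018 to 1170 bp. The second region, 14 kb inside at chr6:135516471-135517038, gave 4.72, 6.33 and 6.38-fold and 4.23, 5.59 and 5.38-fold, with 14 to 22 reads. Both libraries coded as DMSO were the lowest of their genotype there. Under the recorded placement these are the 4 h libraries.

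NOTCH1 had a region over its 5′ end, chr9:139440177-139441137, that was called in all 6 libraries. Only the peaks of CCRF_WT4 and CB45_KO_2 reached the 5′ end itself, at 139440238, and those of the other libraries lay upstream of it. Fold enrichments were 4.78, 6.35 and 9.09 in CCRF_WT, CCRF_WT2 and CCRF_WT4, and 5.63, 5.83 and 4.97 in CB45_KO, CB45_KO_2 and CB45_KO_4. The parent values spanned a wider range than the knockout values and enclosed them. The peak was 265, 759 and 930 bp wide in the parent and 628, 691 and 523 bp in the knockout libraries. Its summit pileup was 23, 46 and 77 reads in the parent and 29, 31 and 23 in the knockout libraries.
Inside the gene, chr9:139399997-139400780, 39.5 kb from the 5′ end, was called in CCRF_WT2 (4.00-fold) and CCRF_WT4 (3.88-fold) and in no other library, on 15 reads each. It was the 1 member held by both of these libraries and no other, a pattern of 4.53% of all regions. Single calls stood at 12.3 kb in CCRF_WT4 (3.14-fold) and at 9.98 kb in CB45_KO (4.30-fold).

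BCL11B had a shared region just outside the gene and a weak one inside. The shared region, chr14:99738278-99738818, 0.456 kb upstream, gave 4.70, 7.38 and 7.46-fold in the parent and 4.86, 4.35 and 5.71-fold in the knockout libraries. CCRF_WT2 and CCRF_WT4 were well above the other 4, with 75 and 79 reads against 23 to 29. The inner region, 8.71 kb from the 5′ end at chr14:99728664-99729117, was called in CCRF_WT2 at 3.03-fold, in CCRF_WT4 at 4.06-fold and in CB45_KO at 4.11-fold, on 13 to 17 reads. The rest of the 102 kb gene span held no peak in any list.

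LEF1 had 9 regions, and 1 of them was held by all 6 libraries. That one lay over the 5′ end, chr4:109089814-109090342, and was low, at 3.43, 3.23 and 4.83-fold in the parent and 3.04, 4.83 and 3.89-fold in the knockout libraries. Its pileups of 18, 43 and 64 reads in the parent and 19, 37 and 23 in the knockout libraries stood on high local backgrounds, 12.6 and 12.5 in CCRF_WT2 and CCRF_WT4 and 4.54 to 6.86 in the other 4. Upstream, chr4:109092704-109093253 was absent from CB45_KO_2 alone and chr4:109093861-109094610 was absent from CCRF_WT and CB45_KO_2. Inside the gene by 96.3 kb, chr4:108993457-108993736 was called in 5 libraries and not in CCRF_WT4, at 4.94 and 5.90-fold in CCRF_WT and CCRF_WT2 and 4.72, 4.77 and 6.51-fold in the knockout libraries. It rested on 11 to 15 reads.
The region 73.4 kb inside, chr4:109016210-109016632, was called in CCRF_WT2 at 7.20-fold and in CB45_KO and CB45_KO_2 at 4.38 and 4.6-fold. The region 55.2 kb inside, chr4:109034502-109034803, was called in CB45_KO_2 (4.98-fold) and CB45_KO_4 (4.28-fold) and in no parent library. The other 3 were called in 1 library each, at 1.8, 60.6 and 125 kb. Most LEF1 regions were thus called in some libraries only, whereas both MYB regions were called in all.

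At the 12 regions shared by all 6 libraries, signal differed between libraries much as it did genome-wide. The median summit pileup was 18.5, 46.5 and 63.0 reads in CCRF_WT, CCRF_WT2 and CCRF_WT4, and 23, 26.5 and 23 in CB45_KO, CB45_KO_2 and CB45_KO_4. Over all 11070 shared regions the medians were 20.0, 49.0 and 59.0, and 26.0, 30.0 and 24.0. Pileup was higher in CCRF_WT2 than in CCRF_WT at 12 of 12 regions (median ratio 2.40, range 1.41 to 4.23), against 94.6% of all shared regions with a median ratio of 2.38. It was higher in CCRF_WT4 than in CCRF_WT at 12 of 12 (3.21, 1.43 to 4.42), against 90.7% and 2.86. In the knockout libraries, pileup was above that of CCRF_WT at 9, 10 and 7 of the 12 regions in CB45_KO, CB45_KO_2 and CB45_KO_4, against 79.7%, 89.7% and 74.9%.
Local background also differed, with medians of 3.63, 7.85 and 8.65 reads in the parent and 3.95, 4.6 and 4.01 in the knockout libraries, and all of them were above the medians over all shared regions, 2.37, 4.39 and 4.88 and 2.80, 3.15 and 2.67. Median pileups were below those over all shared regions in 5 of the 6 libraries, CCRF_WT4 being the exception. Fold enrichment was lower than genome-wide in all 6 libraries, with medians from 4.75 to 6.72 at the 12 regions and from 6.05 to 9.47 over all shared regions. Folds were computed within each list. CCRF_WT4 held the highest fold of the 6 at 9 of the 12 regions, against 52.5% of all shared regions, CCRF_WT2 at 2, against 27.0%, and CB45_KO_2 at 1. For pileup, CCRF_WT4 was highest at 9, against 63.2%, and CCRF_WT2 at 3, against 22.9%. These are descriptions of single libraries, and the part of depth was not tested.

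**Figure D4:**
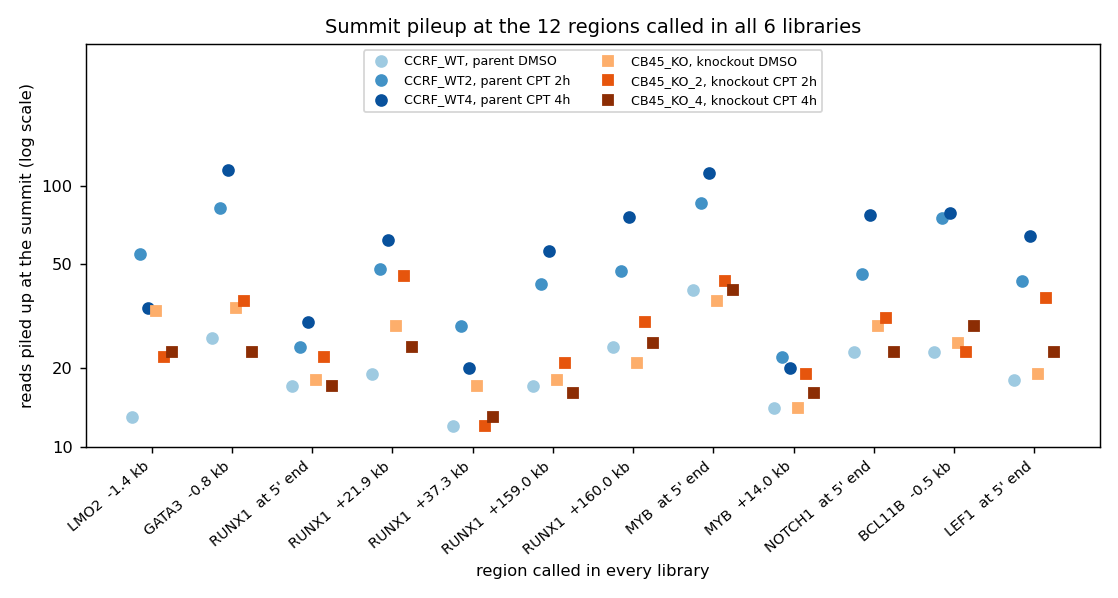
Reads piled up at the summit (vertical axis, log scale) at the 12 regions called in every library (horizontal axis), with 1 point a library, circles for parent and squares for knockout; there are no replicates and no error bars. CCRF_WT4 is the highest point at 9 regions and CCRF_WT2 at 3.

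Camptothecin was compared with DMSO in parent cells to see which peaks of these loci came or went with the drug. By code, the 2 h list lacked 0 of the 15 DMSO-list peaks (0 to 20.4%), against 7.45% of the whole list, and added 11 of its 25 (44.0%, 26.7 to 62.9%), against 45.4%. The 4 h list lacked 1 of 15, the LEF1 peak at 96.3 kb (6.67%, 1.19 to 29.8%, against 11.2%), and added 9 of 22 (40.9%, 23.3 to 61.3%, against 42.8%). Added in both were 5 regions: GATA3 at its 5′ end and at 5.53 kb, NOTCH1 at 39.5 kb, BCL11B at 8.71 kb and LEF1 at 3.86 kb upstream. That is 14.3% of the members, against 19.8% of all regions. Between the later lists, 4 h lacked 7 of 25 peaks of the 2 h list (28.0%, 14.3 to 47.6%, against 20.9%) and added 4 of 22 (18.2%, 7.31 to 38.5%, against 13.8%). The direction turns with the placement. In the recorded one, the 2 h list lacked 7 of 25 (against 20.9%) and added 4 of 22 (against 13.8%). The 4 h list then lacked 11 of 25 (against 45.4%) and added 0 of 15 (against 7.45%). Between 2 h and 4 h, 9 of 22 were missing (against 42.8%) and 1 of 15 added (against 11.2%).

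In knockout cells the counts in each direction were closer to each other, with full lists. By code, the 2 h list lacked 5 of 21 DMSO-list peaks (23.8%, 10.6 to 45.1%, against 16.5%) and added 5 of 21 (23.8%, against 23.1%). Those added were GATA3 at its 5′ end and at 5.53 kb, RUNX1 at 113 kb and LEF1 at 55.2 and 60.6 kb. The 4 h list lacked 6 of 21 (28.6%, against 21.4%) and added 4 of 20 (20.0%, 8.07 to 41.6%, against 20.6%). GATA3 at 5.53 kb and LEF1 at 55.2 kb were added in both, 5.71% of the members against 4.89% of all regions. From 2 h to 4 h, 6 of 21 were missing (28.6%, against 24.0%) and 4 of 20 added (20.0%, against 16.5%). By the recorded samples, the 2 h list lacked 6 of 21 (against 24.0%) and added 4 of 20 (against 16.5%). The 4 h list then lacked 5 of 21 (against 23.1%) and added 5 of 21 (against 16.5%). Between 2 h and 4 h, 4 of 20 were missing (against 20.6%) and 6 of 21 added (against 21.4%). With lists cut to their best 14205 peaks, by code, the parent 2 h list lacked 4 of 15 (against 20.0%) and added 3 of 13 (against 21.7%). The parent 4 h list lacked 2 of 15 (against 22.5%) and added 3 of 15 (against 24.4%). In knockout cells these were 3 of 11 (against 17.3%) and 4 of 12 (against 17.5%) at 2 h. At 4 h they were 3 of 11 (against 19.5%) and 5 of 13 (against 19.4%). Counts in each direction were then close in both genotypes. The treatments share the DMSO list of their genotype, so the 2 h and 4 h counts are not independent. Whether the genotypes differ was not tested.

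The effect of genotype was then read at each treatment. With DMSO by code, the knockout list lacked 0 of 15 parent peaks (0 to 20.4%, against 11.6%) and added 7 of 21 (33.3%, 17.2 to 54.6%, against 35.2%), at RUNX1, NOTCH1, BCL11B and LEF1. At 2 h it lacked 9 of 25 (36.0%, 20.2 to 55.5%, against 26.4%) and added 5 of 21 (23.8%, 10.6 to 45.1%, against 15.4%), the latter at RUNX1 and LEF1. At 4 h it lacked 7 of 22 (31.8%, 16.4 to 52.7%, against 30.2%) and added 4 of 20 (20.0%, 8.07 to 41.6%, against 19.4%). By the recorded samples the DMSO, 2 h and 4 h pairs are those coded 2 h, 4 h and DMSO, so 9 of 25, 7 of 22 and 0 of 15 parent peaks were missing. In the same order, 5 of 21, 4 of 20 and 7 of 21 knockout peaks were added, and the whole-list shares move with the pairs. In all 18 shares the value of the whole list lay inside the interval of the loci, with full lists and an overlap of 1 bp. It lay outside in 2 cases under other settings. Keeping only peaks whose -log10 q was 5 or more, the knockout 4 h list added 5 of 13 against DMSO (38.5%, 17.7 to 64.5%, against 17.6%). With lists of equal length, the knockout 2 h list lacked 5 of 13 parent peaks (38.5%, 17.7 to 64.5%, against 17.4%). Each of these settings gave 18 shares, of which the other 17 were inside.

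**Figure D5:**
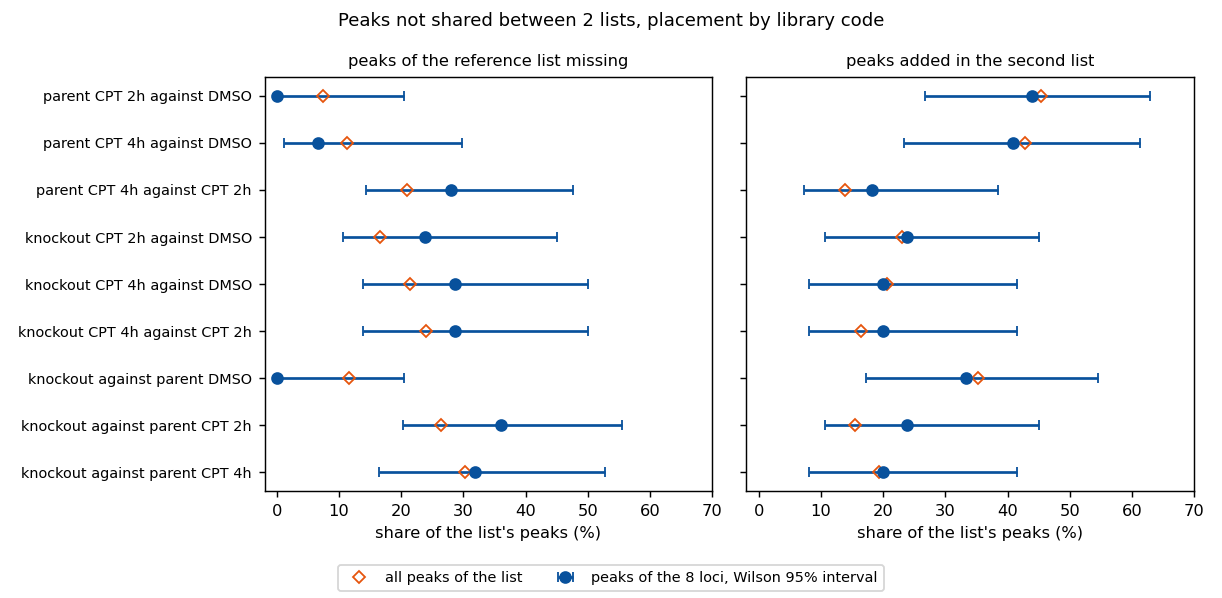
Share of peaks without a partner in the other list (horizontal axis, %), missing from the second list on the left and added in it on the right, for 9 comparisons by library code; filled points are the peaks of the 8 loci with Wilson 95% intervals, which cover counting error only, and open diamonds are all peaks of the same list. Every diamond lies within the interval beside it.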

How the data were processed

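ATAC-seq peak lists of 6 libraries were used, 1 a group. Per the submitters' processing notes, the authors used MACS2 2.1.2 and BWA 0.7.17 with hg19, and also SAMtools 1.8, Picard 2.9.2, Trimmomatic 0.39 and Trim Galore 0.6.2; no roles are listed, and how reads were shifted or duplicates handled was not given in the sources used here. The deposited lists give a score (10 times the -log10 q, truncated), a -log10 q, its -log10 p and a fold enrichment, which is a ratio over local background, all from the authors' peak caller. Lists end at a q of 0.01. Each list carries 1 library code, so peaks were called per library.

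Peaks of chromosomes 1 to 22 and X were kept, overlapping entries of a list were merged, and lists were compared by an overlap of at least 1 bp, in Python 3.11.15 with SciPy 1.17.1; the overlap step was tested on simulated data. Pileup and background were solved from fold and p under a Poisson model, within 0.02 of a whole number for every entry at the loci. Reads given for a peak or region are summit pileups, not counts of all reads in it. Read totals were not used here. Libraries were placed by their code, as the choice of loci states, with the recorded placement as an alternative. Named were all loci with the region nearest the 5′ end, the highest, the widest, those of 1 genotype or absent from 1 library, and examples of counts. Loci, lists and comparisons were chosen with earlier results of these data known. Other alternatives were the gene span alone, lists of 14205 peaks, a 50% overlap and a stricter limit, -log10 q of 5 or more.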

Additional observations from a re-analysis of the deposited data

Results flagged for a closer look

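By library code, the numbers of peaks moved in opposite directions in the 2 genotypes for several contrasts; with 1 library a group none of these differences was tested. Over the 8 loci together, the 4 h list held 7 more peaks than the DMSO list in parent cells and the change in knockout cells was -1. The whole lists moved the same ways, from 14205 to 21617 peaks in parent and from 19289 to 19167 in knockout cells. At NOTCH1 the change from DMSO to 2 h was 1 in parent and -1 in knockout cells, and from DMSO to 4 h it was 2 and -1. At BCL11B it was 1 and -1 at 2 h and again 1 and -1 at 4 h. At LEF1 it was 3 and -1 at 2 h. From DMSO to 2 h the whole lists rose in both genotypes, from 14205 to 23665 peaks in parent and from 19289 to 20894 in knockout cells. The parent DMSO library by code has the shortest list, and these counts turn with the placement of the libraries.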

How the results depend on the processing

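An overlap of 50% of the shorter peak left all 23 results it applies to the same. With peaks of -log10 q of at least 5 there were 23 regions, 7 held by all 6 libraries, 5 by 1 and 1 absent from 1 only. The matching shares of all regions are not given here, so these counts cannot be set against the genome. Peaks then numbered 9 (2828 bp), 20 and 18 in CCRF_WT, CCRF_WT2 and CCRF_WT4, in whole lists of 9965, 18872 and 17328. They numbered 11 (4448 bp), 12 and 13 in CB45_KO, CB45_KO_2 and CB45_KO_4, in whole lists of 14096, 15278 and 13519. The share missing from the parent 4 h list against DMSO became 0 (whole list 8.40%), that missing from the knockout 4 h list against 2 h 8.33% (23.5%), and the shares added in knockout against parent 8.33% for 2 h (10.4%) and 7.69% for 4 h (14%).

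Using the best 14205 peaks of each list, there were 20 regions, 7 held by all 6 and 2 by 1. CCRF_WT, CCRF_WT2 and CCRF_WT4 then had 15, 13 (7359 bp) and 15 peaks. The knockout libraries had 11 (4448 bp), 12 and 13, so CCRF_WT was no longer lowest. In parent cells, 26.7% were then missing (whole list 20.0%) and 23.1% added (21.7%) at 2 h, 20.0% were added at 4 h (24.4%), and 7.69% were missing from 4 h against 2 h (11.9%). In knockout cells 8.33% were missing from 4 h against 2 h (18.4%), and against parent with DMSO 33.3% were missing (20.3%). Also, 1 region became held by all 3 parent libraries and by no knockout library, at RUNX1, chr21:36261908-36262585, which all 6 full lists hold. Fewer peaks enter by construction. The shares of all regions with these patterns are not given here for lists of equal length, so these region counts cannot be set against the genome. With the gene span alone, CCRF_WT had 9 peaks (2702 bp), CB45_KO 13, and 1 region was absent from 1 library only.

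By the recorded samples, in parent cells 28.0% were missing (whole list 20.9%) and 18.2% added (13.8%) at 2 h, 44.0% missing (45.4%) and 0 added (7.45%) at 4 h, and 6.67% added from 2 h to 4 h (11.2%). Knockout against parent lacked 36.0% with DMSO (26.4%) and 0 at 4 h (11.6%). Without the CCRF_WT library, an alternative chosen after seeing the data, 1 region was held by both parent and no knockout libraries. It was NOTCH1 at 39.5 kb, against 1552 of 31670 regions genome-wide. In that setting 4 regions were absent from 1 library only, against 2970 of 31670. None of the alternatives could add a peak at TAL1, so they do not bear on its lack of one. No paired analysis was possible because each group has 1 library and the labels give no replicate numbers. Regions not held by all 6 libraries rest on 8 to 59 reads, and the part of depth in their calls was not tested.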
